A study of Mus musculus with 21 samples.

Results

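The transcripts of 5 genes of the major histocompatibility complex (MHC) class II pathway, H2-Ab1, H2-Aa, H2-Eb1, Cd74 and Ciita, were followed in single mouse CD8 T cells. The genes were chosen by name, with their levels in these cells already known, and all 5 are among the 17516 genes of the deposited count tables. Their levels are therefore given as a description. The cells were OT1 T cells, CD8 cells that carry a transgenic receptor for an ovalbumin peptide. They were sampled naive on day 0 and after activation with beads coated with antibodies to CD3 and CD28.

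The 21 libraries hold 1 library per condition. The conditions were naive cells on day 0, activated cells without added cytokine on days 3 and 5, and activated cells grown with IL-2, IL-2v or IL-15 at 5 or 50 IU/mL on days 3, 5 and 10. IL-2v is a variant of interleukin-2, which the treatment labels call a mutant IL-2bg. All groups other than the naive cells had received the beads. Strain, age and number of animals are not given in the sources used here. The treatment labels of the 50 IU/mL libraries name Interleukin-3 and Interleukin-16 where the titles name IL-2 and IL-15, and the titles were followed. The labels' extraction text describes a sort of CD8 cells from tumours, while the growth text describes a culture, and which of them holds for these libraries cannot be told apart from the labels.

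Between 3250 and 7105 cells per library were kept, with 10589950 to 32648496 unique molecular identifiers (UMIs, tags that each mark one captured RNA molecule) per library and a median of 3016 to 5065 UMIs per cell. Over the 210 pairs of libraries, 1 to 19 cell barcodes were shared (median 7), at most 0.340% of the smaller library. With 1 library per condition no difference has a replicate check. The intervals below are exact 95% intervals (Poisson for levels, Clopper-Pearson for shares, the conditional binomial for ratios) and cover counting error only. Levels are CPM, the gene's UMIs scaled to a common library total. They are not scaled by transcript length, so genes are not ranked against each other.

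MHC class II molecules are pairs of an alpha and a beta chain that present peptides to CD4 T cells. H2-Aa and H2-Ab1 encode the alpha and beta chain of the I-A molecule, and H2-Eb1 encodes the beta chain of I-E. Cd74 encodes the invariant chain, which guards the peptide groove during assembly and also serves as a receptor for the cytokine MIF. Ciita encodes the class II transactivator, the master regulator that binds no DNA itself and is recruited to the shared X and Y boxes of class II promoters. B cells, dendritic cells and macrophages express the whole set, and resting mouse T cells are not known for it.

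The 3 chain genes lie close together on chromosome 17 in the GRCm38 annotation (GENCODE vM21, the build that corresponds to the mm10 of the submitters' notes). H2-Ab1 spans chr17:34257689-34269419 on the plus strand, H2-Aa chr17:34282744-34287823 on the minus strand and H2-Eb1 chr17:34305867-34316674 on the plus strand. Ciita lies on chromosome 16 (10480059 to 10528418, plus strand). Ciita shares 3.45% of its exonic bases with the overlapping gene Dexi, H2-Oa shares 22.8% with BC051537 and H2-DMa shares 10.4% with Brd2, so reads there may be split between genes. H2-Aa and H2-Ab1 overlap no other annotated gene.

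RefSeq's promoter table (GRCm38.p6) held H2-Aa and H2-Eb1 of the members, and H2-Oa and H2-Ob, the 2 chains of a class II modulator, which are shown because they moved in opposite directions here. Each of these windows, from 250 bases before the start site to 50 after, held an X box core and a Y box on the gene's own strand. The stretches around the boxes are printed 5′ to 3′ with the letters GCAAC and ATTGG in capitals.
H2-Aa: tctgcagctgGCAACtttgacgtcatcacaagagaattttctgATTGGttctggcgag
H2-Eb1: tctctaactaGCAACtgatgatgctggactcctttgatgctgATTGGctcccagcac
H2-Oa: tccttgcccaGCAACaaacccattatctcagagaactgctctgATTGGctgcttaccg
H2-Ob: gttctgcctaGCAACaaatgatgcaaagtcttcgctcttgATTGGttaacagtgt
They lie at chr17:34287857-34287914 (minus strand), chr17:34305766-34305822, chr17:34092293-34092350 and chr17:34238808-34238862 (plus strand). The starts of the 2 boxes lie 33, 32, 33 and 30 bases apart. The table's windows of H2-DMa, H2-DMb1 and H2-DMb2, the chains of the peptide exchange factor, held no such pair of strings. The 5-letter strings were picked from textbook knowledge and from these promoters themselves. Searched on both strands, GCAAC occurs in 35.2% and ATTGG in 37.4% of the 32851 promoters of the table, and GCAAC followed by ATTGG with starts 10 to 45 bases apart on 1 strand occurs in 1.60%. A match is a description of letters and not a measured site.

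H2-Ab1 was the member called higher in activated than in naive cells. The naive library held 4 H2-Ab1 UMIs, 0.217 CPM (0.0590 to 0.555), and the day 3 library without cytokine held 888 UMIs, 39.9 CPM (37.3 to 42.6). The ratio was 184 (71.7 to 678), and the log2 difference of CPM + 1 was 5.07. Of the 6171 genes that reached a mean of 20 CPM on either side, 11.1% were likewise 2-fold or more higher on day 3 and 8.31% were 2-fold or more lower. H2-Ab1 passed this filter only through the day 3 library, so it had to differ once tested, and the same holds for the fall from day 3 to day 5 without cytokine given below. With a pseudocount of 10 CPM in place of 1 the difference was 2.29. The median log2 difference of all of them was -0.11. After thinning each cell to 2000 UMIs, 7.42% of the day 3 cells carried an H2-Ab1 UMI, against 0.0224% (1 of 4471) of the naive cells. Before thinning, at median depths that differed between libraries, these shares were 18.1% and 0.0837%. The cells were not divided into types, so no share in cells that should lack the transcript is set beside them. The naive cells gave the lowest share of H2-Ab1.

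The other members stayed at low counts. H2-Aa, the partner chain of H2-Ab1, had 5 UMIs in the naive library and 1 on day 3 without cytokine, a ratio of 0.166 (0.00351 to 1.48). H2-Eb1 went from 10 to 21 UMIs, a ratio of 1.74 (0.786 to 4.15), and Ciita from 3 to 6 UMIs, a ratio of 1.66 (0.355 to 10.3). Cd74 had 69 UMIs (3.74 CPM) in the naive library and 143 (6.43 CPM) on day 3, a ratio of 1.72 (1.28 to 2.33). These 4 members stayed under 20 CPM on both sides and were not part of the call. In counts alone, the intervals of H2-Aa, H2-Eb1 and Ciita hold a ratio of 1 and that of Cd74 does not. The Cd74 interval treats UMIs of the same cell as independent, and 15 of the 143 UMIs on day 3 lay in 2 cells. In the naive library 7 of the 69 lay in 1 cell. After thinning, Cd74 was found in 0.848% (0.595 to 1.17) of day 3 cells and 0.649% (0.435 to 0.930) of naive cells. The intervals of these shares overlap.

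On day 3 the 7 libraries ranged from 39.1 to 66.5 CPM of H2-Ab1. Cells without cytokine had 39.9 CPM. IL-2 gave 55.2 CPM at 5 IU/mL and 66.5 at 50 IU/mL. IL-2v gave 52.6 and 48.2 CPM at the same doses, and IL-15 gave 39.1 and 45.9 CPM. The 6 pairs against the same control library had a median log2 difference of 0.33, 5 of them positive, and no call was made, where 0.329% of 5772 genes were called higher and 0.139% lower.

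By day 5 the libraries had spread apart. Cells without cytokine had fallen to 4.52 CPM (3.73 to 5.42), a ratio to day 3 of 0.113 (0.0925 to 0.138) and a log2 difference of -2.89, where 9.47% of 5785 tested genes were 2-fold or more lower. IL-2 held 15.7 CPM at 5 IU/mL and 81.3 CPM at 50 IU/mL. IL-2v held 43.5 and 81.5 CPM, and IL-15 held 6.06 and 27.1 CPM. H2-Ab1 was thus higher than without cytokine in all 6 libraries, from a ratio of 1.34 (1.06 to 1.71) with IL-15 at 5 IU/mL to 18.03 (14.93 to 21.95) with IL-2v at 50 IU/mL. The median log2 difference was 2.68, and 6.06% of 5756 genes were called higher. H2-Ab1 passed the 20 CPM filter here only through the cytokine libraries, so a higher mean with cytokine was given once it was tested. For sets of pairs a call asked that every pair had the same direction and that the median difference was 2-fold or more. The 6 pairs share 1 control library.

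On day 10 H2-Ab1 ranged from near the naive level to near the highest of the series. IL-15 at 5 IU/mL held 0.472 CPM (11 UMIs, 0.236 to 0.844), and its interval overlapped that of the naive cells. IL-2v at 5 IU/mL held 6.59 CPM and IL-2 at 5 IU/mL 13.9 CPM. At 50 IU/mL the levels were 23.9 CPM with IL-15, 47.6 with IL-2v and 66.6 with IL-2. All 6 libraries were lower than their day 5 counterparts (4 of 6 with TMM scaling), with a median log2 difference of -0.52, which is under the 2-fold rule; 1.62% of 5676 genes were called lower and 0.0705% higher. From day 3 to day 5 the direction was mixed, with 2 libraries higher and 4 lower, where 0.829% of 5912 genes were called higher and 2.22% lower.

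**Figure D1:**
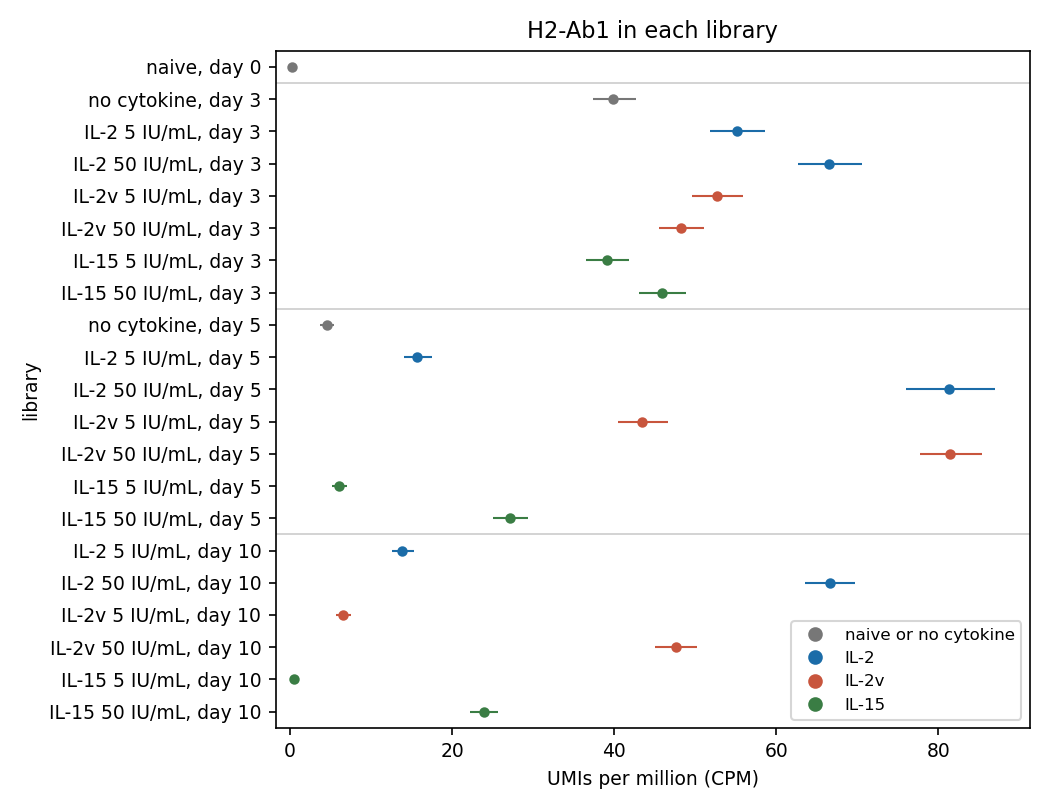
H2-Ab1 in CPM (x axis) for each of the 21 libraries (y axis), coloured by cytokine, with grey lines between days 0, 3, 5 and 10. Points are single libraries and bars exact 95% Poisson intervals. The day 3 libraries lie between 39.1 and 66.5 CPM, and those of day 5 between 4.52 and 81.5 CPM.

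The dose ratio of H2-Ab1 was near 1 on day 3 and larger on days 5 and 10. On day 3 the ratio of 50 to 5 IU/mL was 1.21 (1.11 to 1.32) for IL-2, 0.916 (0.842 to 0.996) for IL-2v and 1.17 (1.07 to 1.29) for IL-15. On day 5 it was 5.17 (4.54 to 5.91) for IL-2, 1.87 (1.72 to 2.04) for IL-2v and 4.48 (3.79 to 5.32) for IL-15. On day 10 it was 4.80 (4.31 to 5.35), 7.23 (6.25 to 8.39) and 50.6 (28.1 to 102) in the same order. Over the 9 pairs the median log2 difference was 1.996 with 8 pairs higher, so the rule of 1 direction in every pair was not met; 0.938% of 5760 genes met it upward and 0.365% downward. In the 6 pairs of days 5 and 10 all were higher with a median of 2.24, where 2.5% of 5672 genes were called higher and 0.74% lower. H2-Ab1 passed the filter here only through the 50 IU/mL libraries. Without day 10 the median over the other 6 pairs was 0.58. The large day 10 ratio of IL-15 rests on 11 UMIs at 5 IU/mL.

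**Figure D2:**
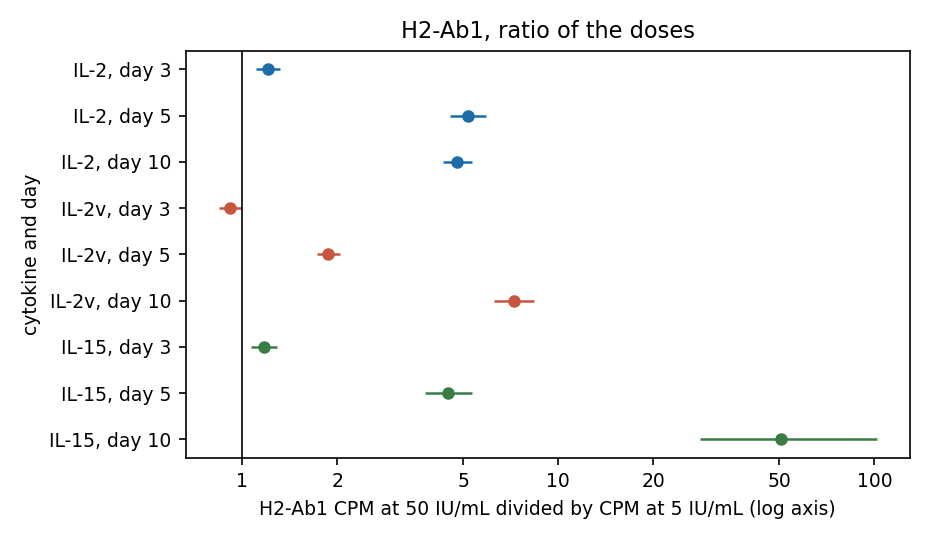
Ratio of H2-Ab1 CPM at 50 IU/mL to that at 5 IU/mL (x axis, log scale) for each cytokine and day (y axis), with exact 95% intervals of the ratio. The day 3 ratios lie from 0.916 to 1.21, and the day 5 and 10 ratios from 1.87 to 50.6.

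Between cytokines at the same dose and day, H2-Ab1 was lower with IL-15 than with IL-2 in 6 of 6 pairs, with a median log2 difference of -1.34 (range -3.34 to -0.49), where 1.7% of 5718 genes were called lower and 0.49% higher. IL-2v was higher than IL-15 in 6 of 6 pairs, with a median of 1.26 (range 0.07 to 2.66), where 2.48% of 5810 genes were called higher and 0.585% lower. In the pair at 50 IU/mL on day 3 the ratio was 1.05 (0.965 to 1.15), and with TMM scaling 5 of 6 pairs were higher and the call was lost. IL-2v and IL-2 did not differ in 1 direction, with 2 pairs higher and 4 lower and a median of -0.26, where 1.04% of 5839 genes were called higher and 0.274% lower. In the IL-2v and IL-2 pair at 50 IU/mL on day 5 the ratio was 1.002 (0.923 to 1.09). At 5 IU/mL it was 2.77 (2.43 to 3.16) on day 5 and 0.475 (0.401 to 0.561) on day 10. Both calls were lost without day 5 (-0.98 for IL-15 over IL-2 and 0.69 for IL-2v over IL-15), without day 10 (-0.89 and 0.99) and with a pseudocount of 10 CPM (-0.93 and 0.71). Each of these 3 comparisons shares libraries with the other two.

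Ordered by level, 14 of the 20 neighbouring H2-Ab1 libraries had overlapping intervals. The gaps lay below the day 5 libraries with IL-2v and IL-2 at 50 IU/mL (81.5 and 81.3 CPM), below those with IL-2 at 50 IU/mL on days 10 and 3 (66.6 and 66.5), below IL-15 at 5 IU/mL on day 3 (39.1), below IL-15 at 50 IU/mL on day 10 (23.9), below IL-2 at 5 IU/mL on day 10 (13.9) and below the day 5 cells without cytokine (4.52). The naive library and IL-15 at 5 IU/mL on day 10 were at the bottom and did not differ beyond counting error.

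H2-Ab1 was spread over many cells at 1 UMI each. Over all libraries 14984 cells held 16239 H2-Ab1 UMIs, 91.9% of these cells held 1, and none held more than 3. In the 19 libraries with at least 50 such cells, the share with a single UMI was 87.2% to 98.3%. Before thinning, cells with H2-Ab1 had a higher median UMI count than the cells with no member in 19 of these 19 libraries, 3602 to 6200 against 2853 to 4754. A deeper cell is more likely to show a UMI, so this direction was largely given. With cells picked after thinning, those with H2-Ab1 were deeper than those without in 16 of 19 libraries, 3334 to 5265 against 3157 to 5206.

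The share of cells in cycle varied widely between libraries, and H2-Ab1 was compared within it. Cells with a UMI of Mki67 or Top2a, genes of dividing cells, made up 3.01% to 86.9% of a library. The H2-Ab1 level of these cells was above that of the others in 20 of 21 libraries. The interval of the ratio lay above 1 in 9 libraries and held 1 in 12. The cells were split before thinning, so the split also follows depth, and the others may include dividing cells. No share of all genes was computed for this split. The ratio was 1.01 (0.879 to 1.17) on day 3 without cytokine, 1.71 (1.34 to 2.16) with IL-2 at 5 IU/mL on day 5 and 2.17 (1.60 to 2.93) with IL-15 at 5 IU/mL on day 5. Without the cells that had a Mki67 or Top2a UMI, the log2 differences of H2-Ab1 were 5.05 for day 3 without cytokine over naive, -2.89 for day 5 over day 3 without cytokine and 2.53 for cytokine over none on day 5. Over all cells these were 5.07, -2.89 and 2.68. Among the differences without a call, that of cytokine over none on day 3 moved from 0.33 to 0.18 (4 of 6 pairs higher), that of day 10 over day 5 from -0.52 to -0.35 (5 of 6 lower) and that of IL-2v over IL-2 from -0.26 to -0.35. This selection was chosen after seeing the data.

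Cd74, the invariant chain gene on chromosome 18 (60803848 to 60812652, plus strand), had a different pattern from H2-Ab1. It was highest on day 5 without cytokine, with 633 UMIs and 24.7 CPM (22.8 to 26.7), against 6.43 CPM on day 3, a ratio of 3.84 (3.195 to 4.63). Of 5785 genes, 3.61% were 2-fold or more higher in this comparison. With cytokine on day 5 it was lower in 6 of 6 libraries, where 1.67% of 5756 genes were called lower. The levels with cytokine were 6.83 CPM with IL-15 at 5 IU/mL, 3.64 with IL-2 at 5 IU/mL, 1.503 with IL-15 at 50 IU/mL, 1.13 with IL-2 at 50 IU/mL, 0.883 with IL-2v at 50 IU/mL and 0.597 with IL-2v at 5 IU/mL. The median log2 difference was -3.47, and the no-cytokine library was 3.61-fold (3.08 to 4.25) to 41.3-fold (22.9 to 83.2) higher. Cd74 passed the 20 CPM filter only through that library, so it had to differ once tested. Without the cells that held 5 or more class II UMIs the differences were 1.34 over time and -2.92 with cytokine, but Cd74 was then under the filter and not called. On day 10 it lay between 0.157 and 0.974 CPM in all 6 libraries, from 5 to 29 UMIs each.

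**Figure D3:**
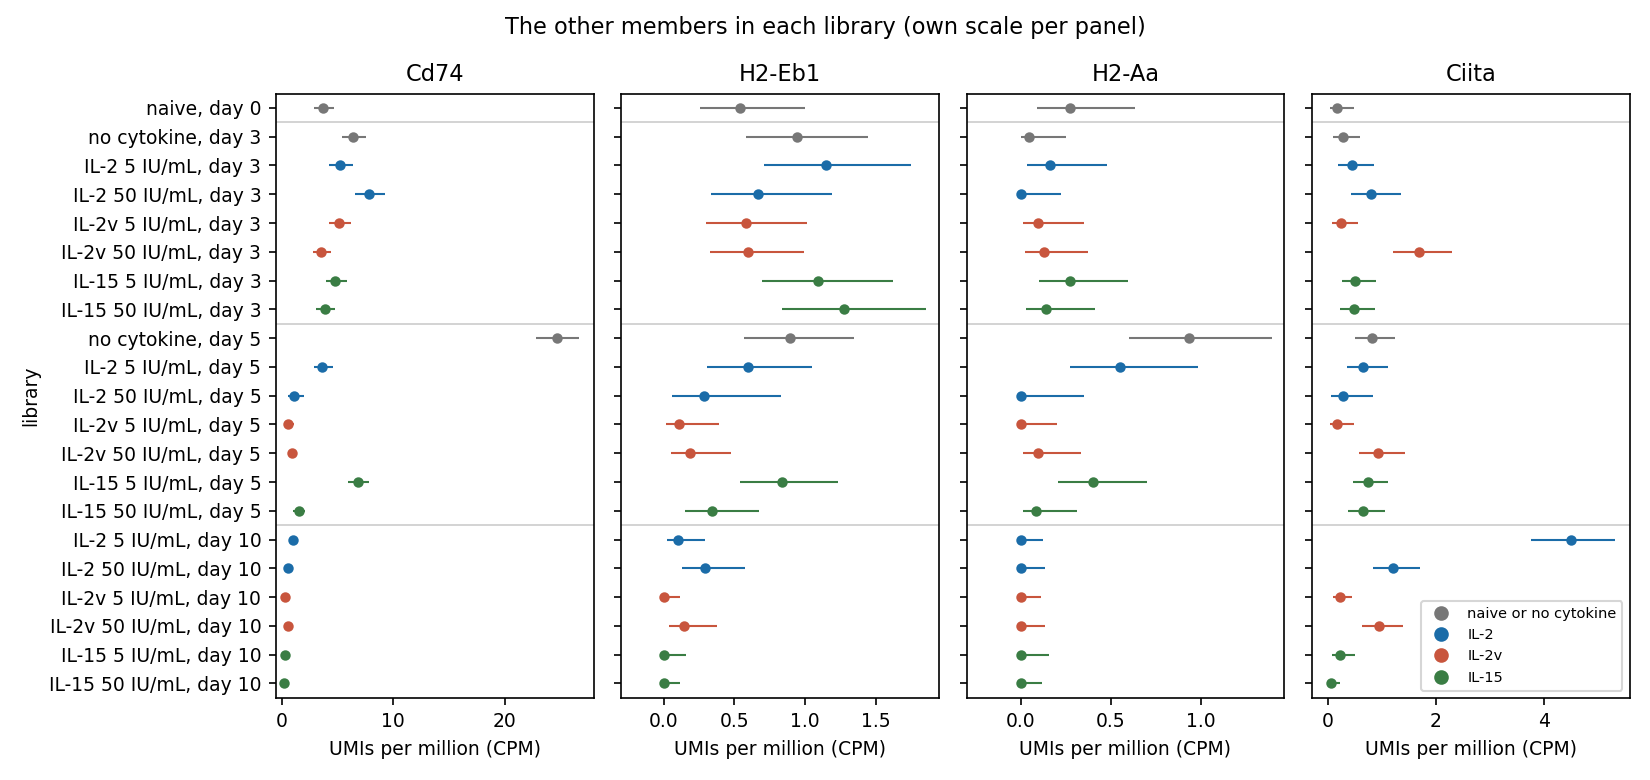
Cd74, H2-Eb1, H2-Aa and Ciita in CPM (x axes, a separate scale in each panel) for the 21 libraries (y axis), with exact 95% Poisson intervals. Cd74 stands out on day 5 without cytokine at 24.7 CPM and Ciita with IL-2 at 5 IU/mL on day 10 at 4.50 CPM, while the intervals of all neighbouring levels of H2-Aa and of H2-Eb1 overlap.

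Part of the Cd74 signal of that library came from few cells. In it, 29 of 6112 cells held 5 or more Cd74 UMIs, up to 13, and together 34.0% of its Cd74 UMIs. Over all libraries there were 38 such cells, and the other 9 were spread over 6 libraries with 1 or 2 each. The 29 cells also carried more of some class II genes than the 5803 cells with no Cd74 UMI. H2-Eb1 was at 64.6 CPM (10 UMIs in 5 of the 29 cells) against 0.249, a ratio of 259 (85.4 to 868). H2-Aa was at 25.9 CPM (4 UMIs in 4 cells) against 0.457, a ratio of 56.6 (13.1 to 191). These intervals treat UMIs of the same cell as independent counts. H2-DMa, a chain of the peptide exchange factor, was at 239 CPM against 76.2, a ratio of 3.14 (2.20 to 4.34), and Rfx5, a subunit of the X box factor, had a ratio of 4.75 (1.89 to 9.95). The interval of the ratio held 1 for H2-Oa (1.11, 0.531 to 2.05), Ctss (1.37, 0.930 to 1.95) and H2-Ob (3.62, 0.431 to 13.5). H2-Ab1 had 1 UMI, and Ciita, H2-DMb1 and H2-DMb2 had 0 UMIs in the 29 cells.

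Most T cell genes looked at in the same 29 cells had a ratio whose interval held 1. Cd3e, a chain of the T cell receptor complex, was at 724 CPM against 781, a ratio of 0.927 (0.763 to 1.12), and Cd8a at 562 against 468, a ratio of 1.203 (0.962 to 1.49). Cd8b1, the other coreceptor chain, was lower, at 847 against 1038 CPM, a ratio of 0.816 (0.682 to 0.969). No UMI of Ms4a1, Igkc or Lyz2, genes of B cells and of macrophages, was found in them, which allows a level of up to 19.4 CPM by the limit of 3 UMIs used for counts of 0. Ms4a1 and Lyz2 had 0 UMIs in the 5803 cells too, so their absence does not set the 29 cells apart. Cd79a had 1 UMI. Cst3, listed for macrophages, was found in 44.8% of the 29 cells against 29.9%, with a ratio of levels of 0.932 (0.495 to 1.60). The median depth of the 29 cells was 4778 UMIs against 3712. These cells were defined by their Cd74 count, and genes that differ in them were not tested in other libraries.

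**Figure D4:**
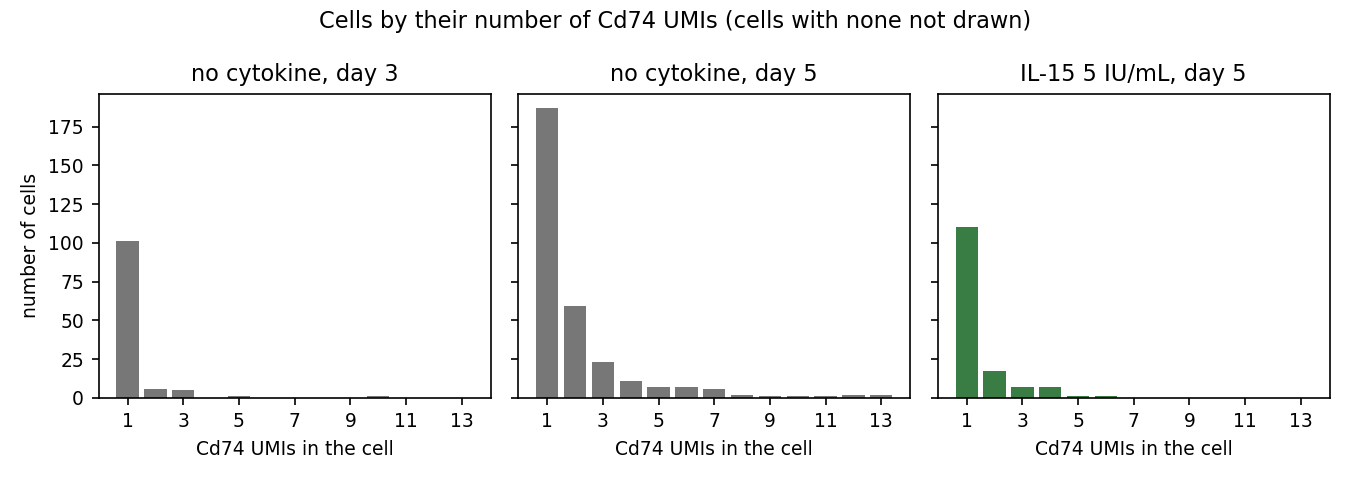
Number of cells (y axis) by Cd74 UMIs in the cell (x axis) in 3 libraries; cells without Cd74 are left out. The day 5 library without cytokine reaches 13 UMIs per cell and has 29 cells with 5 or more, while day 3 without cytokine and day 5 with IL-15 at 5 IU/mL have 2 each.

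H2-Aa and H2-Eb1, the other 2 chains, were close to the limit of detection throughout. H2-Aa had 74 UMIs over all 21 libraries, was at 0 UMIs in 9 of them including all 6 of day 10, and reached 0.935 CPM (24 UMIs) on day 5 without cytokine. H2-Eb1 had 232 UMIs in all, was at 0 in 3 libraries, and reached 1.27 CPM (27 UMIs) with IL-15 at 50 IU/mL on day 3. On day 5 without cytokine the H2-Aa count was 24 against 1 on day 3, a ratio of 20.8 (3.39 to 855). On day 3 alone each library held 862 to 1139 UMIs of H2-Ab1.

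Ciita, the transactivator, was low in all libraries, with 400 UMIs in total. It was highest with IL-2 at 5 IU/mL on day 10, at 4.50 CPM (134 UMIs), 6.94 times (3.92 to 13.4) the same condition on day 5. The next levels were 1.69 CPM with IL-2v at 50 IU/mL on day 3 and 1.21 CPM with IL-2 at 50 IU/mL on day 10. The libraries with the highest H2-Ab1 on day 5 had 0.929 CPM (IL-2v at 50 IU/mL) and 0.283 CPM (IL-2 at 50 IU/mL) of Ciita.

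Within single cells the 3 chains were rarely seen together. At 2000 UMIs per cell, 12 of 102405 cells (0.0117%) carried 2 or more of the 3 chains. H2-Aa and H2-Eb1 are too rare at this depth for cells with all 3 to be looked for. Of 6457 cells with H2-Ab1, 2 (0.0310%) carried H2-Aa, 7 (0.108%) H2-Eb1 and 10 (0.155%) Ciita, against 0.0334%, 0.0823% and 0.161% of the cells without H2-Ab1. In none of the 21 libraries did the intervals of these 3 shares lie apart. H2-Aa was at 0 UMIs in 9 libraries and H2-Eb1 in 3, and the counts elsewhere were small. The comparison could therefore rarely show a difference, and no conclusion is drawn from it. Cd74 was found in 0.805% of cells with H2-Ab1 and 0.588% of the others. The intervals lay apart in 1 library, day 5 without cytokine, where 8 of 58 cells with H2-Ab1 carried Cd74 (13.8%, 6.15 to 25.4) against 2.94% (2.53 to 3.41) of the rest. Before thinning, 18 cells of that library held H2-Eb1 and 24 held H2-Aa. Only 6 and 11 of them were among its 5803 cells with no Cd74 UMI, out of 6112 cells, so the others carried Cd74 as well. In the library with the highest Ciita, 1 of 54 Ciita cells carried H2-Ab1 and 1 carried Cd74, against 2.47% and 0.149% of the other cells.

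Nearly all cells with class II transcripts carried T cell markers. Without thinning, 16510 of 16516 cells with a UMI of any member (99.96%) had a UMI of Cd3d, Cd3e, Cd3g or Trac, which encode parts of the T cell receptor complex, against 99.94% of the 89940 cells with none. As nearly every cell carried one, these shares cannot set the cells with a member apart from the rest. Doublets were not looked for. A UMI of Cd8a or Cd8b1, the CD8 coreceptor, was found in 88.5% of the cells with a member and 88.8% of those with none. These shares pool libraries that differ in class II and in Cd8 levels, and within single libraries the direction differed. In the naive library, 72.1% of the 61 cells with a member carried Cd8a or Cd8b1 against 84.5% of the rest. With IL-2 at 50 IU/mL the shares were 73.9% against 67.3% on day 5 and 75.2% against 66.1% on day 10. In these IL-2 libraries the cells with a member were deeper, at a median of 3598 against 2853 UMIs and 6156 against 4579. At equal depth, over the 19 libraries with at least 50 H2-Ab1 cells, Cd3e was found in 46.2% to 79.3% of cells with H2-Ab1 and 45.6% to 78.0% of the others, Trac in 31.3% to 50.0% against 29.5% to 53.1%, and Cd8a in 21.3% to 53.5% against 21.3% to 55.6%. The intervals overlapped in every one of these libraries for Trac and Cd8a, and lay apart in 1 of them for Cd3e, lower in the cells with H2-Ab1. For Cd8b1 (31.3% to 77.2% against 29.4% to 79.6%) they lay apart in 2 libraries, also lower. Among the other T cell markers of the list they lay apart for Thy1 in 3 libraries (2 higher, 1 lower), for Trbc2 in 2 (1 higher, 1 lower) and for Cd3g in 1 (higher), and in none for Cd3d, Cd247, Trbc1, Lck and Cd2. For cells with any member, in 19 libraries, they lay apart for Cd8a in 2 and for Cd8b1 in 1, lower in these cells. Thy1 was then higher in 2, Trbc2 higher in 1 and lower in 1, and no other T cell marker lay apart. For cells with Cd74, 2 libraries had at least 50 of them. There Cd2 lay apart in 1, lower in these cells (35.4% to 37.7% against 45.3% to 46.8% over both), and no other T cell marker did.

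**Figure D5:**
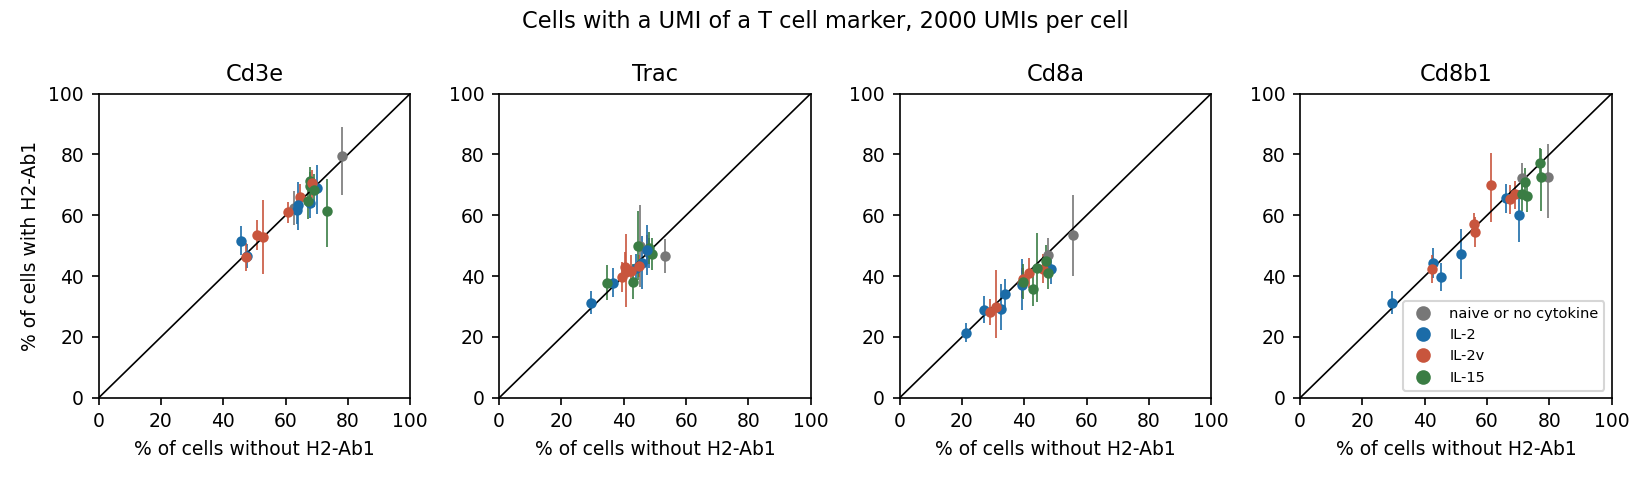
Percent of cells with a UMI of Cd3e, Trac, Cd8a or Cd8b1 among cells with H2-Ab1 (y axes, exact 95% intervals) and among cells without (x axes), at 2000 UMIs per cell, in the 19 libraries with at least 50 H2-Ab1 cells. The line marks equal shares, and the points lie along it, from 21.3% to 79.3%.

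Among markers of other cell types, several were at or near 0 and others were not. Pax5 of B cells had 0 UMIs in all libraries and Ms4a1 had 1. Lyz2, Csf1r, Adgre1, C1qa and C1qb of macrophages had UMIs in the naive library alone, with 6 to 17 UMIs each. The 13 B cell markers other than Ighm summed to 5.94 to 41.5 CPM, highest in the naive library. Among them, Ighd reached 20.1 CPM, Fcmr 19.2 CPM and Cd79b 17.1 CPM. The 3 markers of CD4 and regulatory T cells summed to 2.02 to 29.4 CPM, with most of it from Zbtb7b, a transcription factor of the CD4 lineage that reached 28.9 CPM (13.5% of cells) with IL-2 at 50 IU/mL on day 5. The sum was highest in the 4 libraries with the highest H2-Ab1, at 26.2 to 29.4 CPM, and lowest with IL-15 and IL-2v at 5 IU/mL on day 10 (2.02 and 2.30 CPM). It did not follow H2-Ab1 throughout. The naive library, the lowest in H2-Ab1, had the median sum of 12.4 CPM. IL-15 at 50 IU/mL on day 10 had a sum of 4.33 CPM with H2-Ab1 at 23.9 CPM. Cd4 had at most 4.39 CPM, in the naive library, and Foxp3 17 UMIs in all. Within the 19 libraries with at least 50 H2-Ab1 cells, at 2000 UMIs per cell, the intervals of Zbtb7b and of Cd4 lay apart in none between cells with and without H2-Ab1. Ighm had 27.4 to 739 CPM over the libraries, highest with IL-15 at 5 IU/mL on day 3. Cst3, listed for macrophages, was at 61.0 to 126 CPM in all libraries. Gzma, listed for natural killer cells, reached 5352 CPM on day 10 with IL-2 at 50 IU/mL, a library in which H2-Ab1 was at 66.6 CPM. Of the dendritic cell markers, 6 of 11 are in the files and summed to 1.04 to 133 CPM. Batf3, a transcription factor, made up nearly all of the highest sum, with 128 CPM and UMIs in 34.1% of cells with IL-2 at 50 IU/mL on day 3, where H2-Ab1 was at 66.5 CPM. Flt3 had 1 UMI in all and Fscn1 at most 3.82 CPM. Fcer1g, listed for macrophages, reached 113 CPM (17.7% of cells) with IL-2 at 50 IU/mL on day 10, and Klrb1c, listed for natural killer cells, 36.7 CPM with IL-2v at 50 IU/mL on day 10. At 2000 UMIs per cell, Batf3 was found in 313 of 6449 cells with H2-Ab1 and in 2275 of 86091 without, in the 19 libraries with at least 50 H2-Ab1 cells, and the intervals lay apart in none of these libraries. For Fcer1g they lay apart in 1 library, lower in cells with H2-Ab1, and for Cst3 and Gzma in 1 library each, higher in them. Among cells with Cd74, in the 2 libraries with at least 50 such cells, Ighm was lower in 1 with intervals apart. Batf3 was higher in 1 of the 2 libraries, day 5 without cytokine, at 4.92% against 1.77%. Zbtb46, another dendritic cell marker, was found in 3.33% of the 60 cells with 2 or more class II UMIs in the 1 library that had 50 of them, against 0.151% of the others, with intervals apart. Without the cells that carried 2 or more markers of other lineages, the log2 differences of H2-Ab1 were 5.22 for day 3 without cytokine over naive and 2.72 for cytokine over none on day 5, and that of Cd74 on day 5 with cytokine was -3.49. These markers include Cst3, Batf3 and Fcer1g, and the selection removed 1.69% to 24.55% of a library's cells. The shorter list of lineage markers removed at most 0.455%.

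The other 37 genes of the pathway list, all of them in the files, moved in both directions. Between the naive and the day 3 library without cytokine, 24 passed the filter. Of these, 6 were higher and 3 lower by 2-fold or more, where 11.1% and 8.31% of all tested genes were, and the median log2 difference was 0.10 against -0.11 for all genes. Among genes of peptide loading, H2-Oa, the alpha chain of the modulator H2-O, was higher (20.1 to 70.0 CPM), and H2-Ob, its beta chain, was lower (26.3 to 6.38 CPM). H2-DMa was at 40.4 and 60.1 CPM. H2-DMb1 and H2-DMb2, the beta chains that pair with it, were at 0.433 and 0.271 CPM in naive cells and at 2.79 and 3.87 CPM on day 3. Lag3, an inhibitory receptor that binds class II, was higher (1.08 to 84.9 CPM), as were Mif, the ligand of CD74 (349 to 1448 CPM), and its partner Cd44 (25.1 to 57.5 CPM). Ctss, the protease that trims the invariant chain, was lower (108 to 41.0 CPM). Of the genes called here, Lag3, Ifi30, H2-Ob and Ifngr2 passed the filter only through the side where they were high, so for them a difference was given once they were tested. This holds also for Ifi30 in both day 5 comparisons and for Lag3 from day 5 to day 10.

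Without cytokine, Ctss was higher again on day 5 (148 CPM), as were Irf2 and Jak1, a transcription factor and a kinase of the interferon gamma route, while Ifi30, the lysosomal thiol reductase, Mif, Cd44 and Lag3 were lower, 3 higher and 4 lower of 21 tested, where 3.61% and 9.47% of all tested genes were. With cytokine on day 5, Ifi30, Mif and Cd44 were higher than without and Ctss was lower, 3 and 1 of 21 tested, where 6.06% and 1.67% of all tested genes were. Ctss was also lower at 50 than at 5 IU/mL in all 6 pairs of days 5 and 10 (median log2 difference -1.12), the only call among 20 tested, where 0.74% of all tested genes were called lower. The 7 listed genes of the X and Y box factors were found in every library, and none of the 4 or 5 that reached 20 CPM was called in any comparison. Over the comparisons, 0.0705% to 11.1% of all tested genes were called in a given direction. With so few genes no call is the likely outcome, and no conclusion is drawn from it. Of the RFX subunits, which bind the X box, Rfxap ranged from 26.9 to 58.3 CPM, while Rfx5 (4.18 to 10.3 CPM) and Rfxank (6.003 to 14.2 CPM) stayed under the filter. From day 5 to day 10, H2-Oa and Lag3 were called lower, with median log2 differences of -1.09 and -1.89, where 1.62% of all tested genes were.

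Over the 21 libraries the members did not all follow the same order. The Spearman coefficient was 0.88 between H2-Eb1 and Cd74, 0.73 between H2-Aa and H2-Eb1 and 0.68 between H2-Aa and Cd74. For H2-Ab1 it was 0.01 with Cd74, 0.14 with H2-Eb1, 0.30 with Ciita and -0.27 with H2-Aa. The points share conditions and depth, and most H2-Aa values rest on 3 or fewer UMIs. Among the 5495 other genes whose mean reached 20 CPM, the 5 genes closest to the sum of the 3 chains, which is nearly all H2-Ab1, were Avpi1 (0.97), C1qtnf12 (0.97), Pkm (0.97), P4hb (0.97) and Bsg (0.96). Those closest to Cd74 were Hmg20b (0.82), Tnfrsf13b (0.80), Myb (0.79), Hsdl2 (0.79) and Itpr1 (0.79). Without the 2 libraries farthest from the median of the pattern, these coefficients were 0.95 to 0.97 for the chains and 0.76 to 0.83 for Cd74. Avpi1 ran from 8.66 CPM in naive cells to 71.4 CPM with IL-2 at 50 IU/mL on day 10.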

How the data were processed

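Single-cell RNA was counted in 21 libraries of mouse OT1 T cells, 1 per condition. The deposited values are whole-number counts of UMIs per gene and cell; the submitters' processing notes name Cell Ranger, the genome mm10 and Seurat 4.0.1 and 3.0.2, with no parameters. A Cell Ranger version and a doublet step are not given in the sources used here, and no doublet caller was run. Barcodes were kept from 1000 UMIs and 500 genes upward when mitochondrial UMIs made up 10% or less, which removed 2 of 106458. UMIs were summed per library and divided by the library total (CPM). Shares of cells were taken after thinning each cell to 2000 UMIs, leaving out 0.938% to 12.1% of a library's cells. A gene was tested where its mean reached 20 CPM on either side. A call needed a difference in log2(CPM + 1) of at least 1 in a single pair, or 1 sign in all pairs and such a median; with 1 library per group no p-value was computed. The calls and intervals were run on simulated counts with Poisson error alone. These held no spread between replicate libraries and no clumping of UMIs in single cells, so they could not test the effect of either. The members, gene lists and marker lists were chosen with earlier results of these data known. Some listed genes are not reported here. Named genes are the 5 members, genes of the lists, and the 5 genes closest in rank order to Cd74 and to the 3 chains together. Alternatives were TMM scaling (edgeR 4.0.16), other totals, pseudocounts, filters and cell selections, and each day left out. The alternatives without cells with Mki67 or Top2a and with a shorter list of lineage markers were chosen after seeing the data. Python 3.11.15, numpy 2.4.6, scipy 1.17.1 and R 4.3.3 were used.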

Additional observations from a re-analysis of the deposited data

Results flagged for a closer look

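Pairs of libraries under the same contrast were set apart where their effects had opposite directions and both counting intervals left out a ratio of 1. With 1 library each, none of these differences was tested. H2-Ab1 from day 3 to day 5 moved up at 50 IU/mL with IL-2 (ratio 1.22) and IL-2v (1.69). It moved down at 5 IU/mL with IL-2 (0.285), IL-2v (0.826) and IL-15 (0.155), with IL-15 at 50 IU/mL (0.592), and without cytokine. The dose ratio of H2-Ab1 with IL-2v was 0.916 on day 3, against 1.87 on day 5 and 7.23 on day 10, and against 1.21 with IL-2 and 1.17 with IL-15 on day 3. IL-2v over IL-2 at 5 IU/mL was 2.77 on day 5 and 0.475 on day 10 for H2-Ab1.

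Cd74 from day 3 to day 5 went up without cytokine and with IL-15 at 5 IU/mL (ratio 1.42). It went down with IL-2 at 5 and 50 IU/mL (0.695 and 0.145), IL-2v at 5 and 50 IU/mL (0.116 and 0.248) and IL-15 at 50 IU/mL (0.389). IL-15 over IL-2 at 5 IU/mL was 1.87 on day 5 and 0.308 on day 10 for Cd74. Its ratio of 50 to 5 IU/mL was 1.49 with IL-2 on day 3, against 0.311 with IL-2 on day 5 and 0.689 with IL-2v on day 3.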

How the results depend on the processing

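The 12 H2-Ab1 and Cd74 differences were recomputed in 144 alternatives; 134 kept their direction and their side of the call and none reversed. The H2-Ab1 difference between IL-15 and IL-2 lost its call with a pseudocount of 10 CPM (-0.93), without day 5 (-0.98) and without day 10 (-0.89). That between IL-2v and IL-15 lost it with TMM (1.12, 5 of 6 pairs higher), a pseudocount of 10 CPM (0.71), without day 5 (0.69) and without day 10 (0.99). The dose difference met the rule without day 3 (2.24) and was 0.58 without day 10. A pseudocount of 10 CPM moved H2-Ab1 from 5.07 to 2.29 (activation), from -2.89 to -1.78 (day 5 against day 3 without cytokine) and from 2.68 to 1.62 (cytokine, day 5), and Cd74 from 1.79 to 1.08 and from -3.47 to -1.62 in the latter comparisons. Cd74 without the cells with 5 or more class II UMIs kept a difference of 1.34 on day 5 against day 3 and of -2.92 with cytokine, but fell under the 20 CPM filter and was then not called. Without cells with Mki67 or Top2a, the day 5 difference of H2-Ab1 from no cytokine kept its call. No pairing by replicate was possible because the labels give no replicate numbers and each condition has 1 library. The pairs used here match libraries by day, dose or cytokine only. A model adding day, dose and cytokine over the 18 cytokine libraries was not run. Leaving out a replicate was likewise not possible. TMM moved the median of all genes by 0.11 (no cytokine, day 5 against day 3), 0.10 (day 5 against day 3) and 0.14 (day 10 against day 5), and leaving out cells with Mki67 or Top2a moved it by -0.12 (activation).

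The number of genes called varied with the settings. It was 466 to 1579 for activation higher (684 as reported), 274 to 1305 for day 5 without cytokine lower (548) and 112 to 358 higher (209). For cytokine on day 5 it was 208 to 750 higher (349) and 58 to 158 lower (96). It was 57 to 216 for IL-15 against IL-2 lower (97), 47 to 365 for IL-2v against IL-15 higher (144) and 23 to 142 for dose higher (54). The highest activation and day 5 counts came without the CPM filter, where more genes were tested. In the same order, the shares of tested genes were 7.86% to 11.9% (11.1% as reported), 4.99% to 10.0% (9.47%) and 1.94% to 5.06% (3.61%). The next were 3.74% to 6.41% (6.06%), 0.902% to 2.46% (1.67%) and 0.997% to 3.86% (1.7%). The last were 0.809% to 6.33% (2.48%) and 0.399% to 2.5% (0.938%).

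Shares of cells with a class II UMI depend on depth. Thinned to 2000 UMIs, to 1000 UMIs and not thinned they were 0.716%, 0.377% and 1.28% (naive), 8.39%, 4.92% and 20.4% (day 3 without cytokine), 4.17%, 2.26% and 6.95% (day 5 without cytokine), 16.1%, 8.17% and 31.8% (IL-2v at 50 IU/mL, day 5), and 0.204%, 0.147% and 0.385% (IL-15 at 5 IU/mL, day 10). With 2 or more UMIs of the members they were 0.134%, 0.330%, 0.9995%, 0.481% and 0 (which allows 0.0556%) in the same order, so day 5 without cytokine was then the highest of the 5. Of the 241 cells with 2 or more UMIs, 68.0% carried Cd8a or Cd8b1 against 69.9% of those with 1 or more.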
